A study of Mus musculus with 10 samples.

Results

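The 10 genes described here are interferon-induced effectors, and they were taken by name from the 22198 genes of the expression table. They are Ifit1, Ifit2, Ifit3, Ifit3b, Isg15, Rsad2, Ifi27, Ifi27l2a, Ifi44 and Xaf1, and all 10 had a value in every library. RNA sequencing had been done on brain cortex of untreated mice aged 6 months. The label ctrl (genotype Mic19 WT) was on 5 libraries and BKO (genotype Mic19 knockout) on the other 5. Mic19, encoded by Chchd3, belongs to the MICOS complex, which holds mitochondrial cristae in shape. The labels name no Cre driver, cell type of deletion, sex or strain, and nothing in them ties a library to a separate animal, which leaves the p-values a measure of the spread between these libraries alone. The study's title names leaked mitochondrial DNA and cGAS-STING signalling, and the design text names inflammation genes as its aim.

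Type I interferons act through a cell-surface receptor, whose kinases JAK1 and TYK2 activate transcription factors. Among them is the complex ISGF3, which contains STAT2 and IRF9 and binds the interferon-stimulated response element in the promoters of target genes. cGAS, a sensor of DNA in the cytosol, is one route to this response, and in brain both glia and neurons can mount it. The effectors act late in it: the IFIT proteins bind foreign RNA, ISG15 is a ubiquitin-like tag that is attached to other proteins, and RSAD2 (viperin) makes a nucleotide that ends viral RNA chains.

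The response element was searched for as the letters GAAANNGAAA, on both strands, in the RefSeq promoter windows of build GRCm38.p6, which run from 250 bases before to 50 bases after a transcript start. Of the 10 effectors, 8 had such a window, and Ifi27 and Ifi27l2a had no entry. The letters stood in the windows of 5 genes, Ifit1, Ifit3, Ifit3b, Isg15 and Rsad2, and in 3.44% of all 32851 windows. No match was found in the windows of Ifi44, Xaf1 and Ifit2, the last of which had more than 1 start, and this says only that those letters are not in these windows. The stretches of 120 bases around the matches are shown because they place the element in each gene and show how alike Ifit3 and Ifit3b are. They read 5′ to 3′ on the strand of the gene, with the matches in capitals, so that a match on the opposite strand appears as its reverse complement in Ifit1, Ifit3, Ifit3b and Rsad2. They lie at chr19:34640739-34640858 (+) for Ifit1, chr19:34583335-34583454 (+) for Ifit3, chr19:34607731-34607850 (+) for Ifit3b, chr12:26456508-26456627 (-) for Rsad2 and chr4:156200826-156200945 (-) for Isg15.
Ifit1: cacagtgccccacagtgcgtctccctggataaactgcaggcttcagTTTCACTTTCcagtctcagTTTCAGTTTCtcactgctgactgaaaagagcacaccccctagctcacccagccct
Ifit3: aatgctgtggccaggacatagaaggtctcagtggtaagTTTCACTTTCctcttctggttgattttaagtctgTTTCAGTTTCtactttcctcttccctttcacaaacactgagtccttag
Ifit3b: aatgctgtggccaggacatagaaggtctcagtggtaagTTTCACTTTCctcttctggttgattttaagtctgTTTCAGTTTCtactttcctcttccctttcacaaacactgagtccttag
Rsad2: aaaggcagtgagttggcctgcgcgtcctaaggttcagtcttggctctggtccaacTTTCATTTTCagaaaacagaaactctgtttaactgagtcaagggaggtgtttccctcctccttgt
Isg15: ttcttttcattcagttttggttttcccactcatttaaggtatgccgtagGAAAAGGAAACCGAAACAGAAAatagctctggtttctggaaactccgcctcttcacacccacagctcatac
Ifit1, Ifit3 and Ifit3b each held 2 matches, Rsad2 held 1, and Isg15 held 3, of which neighbours overlap. The windows of Ifit3 and Ifit3b shared an identical run of 169 bases, which contains both matches.

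The values are FPKM, fragments scaled to gene length and library size, as the authors deposited them. Libraries summed to between 730340 and 766786 FPKM, and the steps between their low values put their relative depth at 0.863 to 1.21, as an approximate estimate. Chchd3 was not lower in the BKO libraries. It stood at 73.1, 77.3, 80.6, 79.0 and 82.3 FPKM in ctrl 1 to 5 and at 94.2, 89.4, 88.3, 81.5 and 87.7 FPKM in BKO 1 to 5 (exact permutation test, 2-sided, p = 0.0159). By limma over all genes tested, Chchd3 differed by 0.17 on the log2 scale and did not pass (limma adjusted p = 0.0528). A value for the whole gene does not test the loss of part of it, so the directions below are those of the libraries as labelled. Markers of choroid plexus, a tissue next to the cortex, split both groups: Ttr lay at 1098 to 2720 FPKM in ctrl 1, 3 and 5 and BKO 1, 2 and 5, and at 38.9 to 89.9 FPKM in the other libraries. Neuronal markers were present in every library, summing to 4117 to 4557 FPKM in ctrl and to 3792 to 4211 FPKM in BKO. No list of markers particular to cortex was examined. Of 7 neuronal markers, Snap25, a synaptic protein gene, fell by 0.18 on the log2 scale (limma adjusted p = 0.0379), and the others did not pass.

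Of the 10 effectors, 6 rose in the BKO cortex: Ifit1, Ifit3, Ifit3b, Rsad2, Ifi27 and Ifi27l2a. None fell, and Isg15, Ifit2, Ifi44 and Xaf1 did not pass the test. The test was limma on log2(FPKM + 0.5) across 14447 genes, those that reached 0.5 FPKM in 5 or more libraries, and the limit was a Benjamini-Hochberg adjusted p of 0.05. By that rule 3.32% of all genes tested were higher in BKO and 2.46% were lower, 5.79% in both directions. In whole cortex, more cells of a type and more RNA per cell cannot be told apart. The median log2 difference was 0.51 for the 10 effectors and 0.00 for all genes tested (-5.25e-05 before rounding). The effectors were chosen with earlier results of these data known, so their share is a description of this list.

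**Figure D1:**
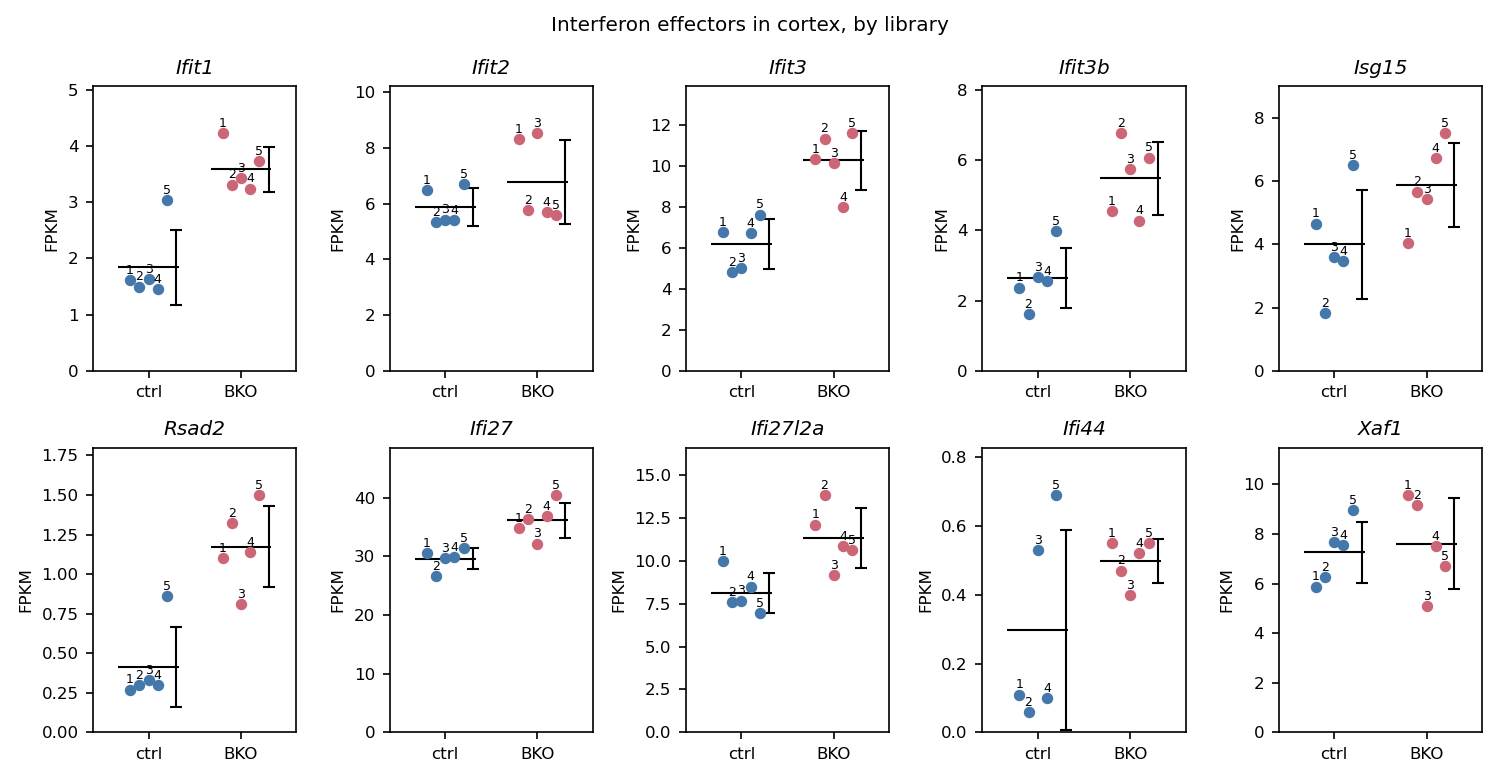
FPKM of each interferon effector (vertical axis from 0, a scale of its own in each panel) in the 5 ctrl and 5 BKO libraries, with points numbered by library, lines at the group mean and bars of 1 SD. The groups stand apart for Ifit1, Ifit3, Ifit3b and Ifi27, and ctrl 5 is the highest ctrl library in every panel but Ifi27l2a.

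The levels per kilobase spanned a wide range. In ctrl, Ifi27 was highest at 29.6 ± 1.82 FPKM (SD, n = 5), and its range did not meet that of the next gene. Ifi27l2a, Xaf1, Ifit3, Ifit2, Isg15, Ifit3b and Ifit1 followed in that order, from 8.13 down to 1.85 FPKM, and each of them overlapped its neighbour in the order. Rsad2 at 0.412 ± 0.251 FPKM and Ifi44 at 0.298 ± 0.291 FPKM (SD, n = 5 each) were lowest and overlapped each other. In BKO the order was the same except that Ifit3, at 10.3 FPKM, stood above Xaf1, at 7.61 FPKM.

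Of the 4 Ifit genes, 3 rose. Ifit1 binds RNA whose cap is missing or incomplete. It stood at 1.62, 1.50, 1.63, 1.45 and 3.03 FPKM in ctrl 1 to 5 and at 4.22, 3.31, 3.43, 3.24 and 3.73 FPKM in BKO 1 to 5. The lowest BKO value was above the highest ctrl value, and ctrl 5 came closest to the BKO range. The rise was 0.83 on the log2(FPKM + 0.5) scale (SE 0.158, limma adjusted p = 0.00429), where the changes of lowly expressed genes come out too small. No overlap with BKO higher occurred in 3.62% of all genes tested, and in 4 of the 10 effectors.

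Ifit3 is a partner that, in human cells, stabilises IFIT1 and aids its RNA binding, and mice carry a close copy, Ifit3b. Ifit3 stood at 6.78, 4.81, 5.01, 6.72 and 7.63 FPKM in ctrl 1 to 5 and at 10.3, 11.3, 10.1, 7.99 and 11.6 FPKM in BKO 1 to 5. Ifit3b stood at 2.37, 1.62, 2.67, 2.56 and 3.99 FPKM in ctrl and at 4.55, 6.76, 5.74, 4.28 and 6.07 FPKM in BKO. In both genes the groups did not overlap, and ctrl 5 was the highest ctrl library and BKO 4 the lowest BKO library. Ifit3 rose by 0.70 (SE 0.130, limma adjusted p = 0.00373) and Ifit3b by 0.95 (SE 0.176, limma adjusted p = 0.00351).

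Reads of this pair can be divided between the copies, so their single values are uncertain. In the GENCODE M21 transcripts, 31.7% of the stretches of 100 bases of Ifit3 also occur in Ifit3b, and 27.4% of those of Ifit3b occur in Ifit3. The sum of the pair was taken as well, although it too can move with the division of reads, since FPKM is scaled to each copy's own length, and with the loss of shared reads in counting. It was 9.15, 6.43, 7.68, 9.28 and 11.6 FPKM in ctrl 1 to 5 and 14.9, 18.1, 15.9, 12.3 and 17.7 FPKM in BKO 1 to 5, again without overlap. On the log2 scale the sum was higher by 0.81 in BKO (p = 0.00794 in a 2-sided exact permutation test, which is as low as 5 against 5 libraries can reach). Ifit3b made up 29.6 ± 4.64% of the sum in ctrl and 34.7 ± 2.56% in BKO (SD, n = 5 each). Ifit1 shared 3.29% of its stretches, with Ifit1bl2, and the other effectors shared none with another gene.

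Ifit2, an RNA-binding member of the same gene cluster on chromosome 19, did not pass the test. It stood at 6.50, 5.34, 5.43, 5.42 and 6.71 FPKM in ctrl 1 to 5 and at 8.32, 5.76, 8.52, 5.71 and 5.60 FPKM in BKO 1 to 5. BKO 1 and BKO 3 lay above all ctrl libraries, and the other BKO libraries lay within the ctrl range. The difference was 0.17 (95% interval -0.10 to 0.45, limma adjusted p = 0.548), and it was 0.10 without BKO 1 and 0.09 without BKO 3.

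Isg15 stood at 4.65, 1.82, 3.60, 3.47 and 6.50 FPKM in ctrl 1 to 5 and at 4.03, 5.66, 5.43, 6.73 and 7.50 FPKM in BKO 1 to 5. The groups overlapped widely: ctrl 5 exceeded all BKO libraries but BKO 4 and BKO 5, and BKO 1 lay below ctrl 1. The difference of 0.56 did not pass over all genes (95% interval 0.06 to 1.07, limma adjusted p = 0.224). It was 0.35 without ctrl 2, the lowest ctrl library, and 0.74 without ctrl 5 (limma adjusted p = 0.410 and 0.0585). The interval takes in the rise of Ifit1, and the difference between these genes was not tested.

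**Figure D2:**
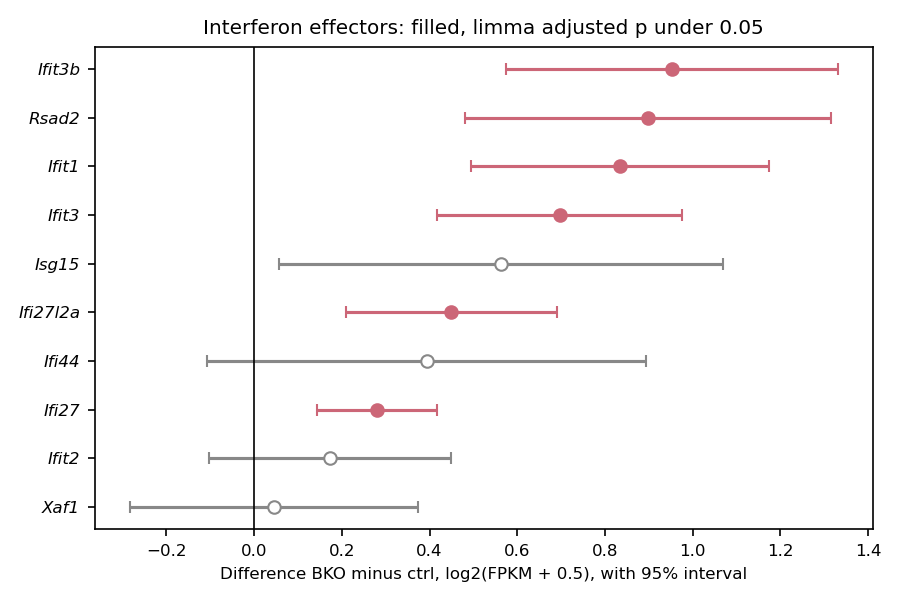
Log2 difference, BKO minus ctrl, of each interferon effector with its 95% interval, filled where the limma adjusted p over all genes was under 0.05. The 6 filled genes lie between 0.28 (Ifi27) and 0.95 (Ifit3b), and the intervals of Ifit2, Ifi44 and Xaf1 cross 0.

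Rsad2, whose protein viperin is an antiviral radical-SAM enzyme, was near the lower limit of measurement in ctrl. It stood at 0.27, 0.30, 0.33, 0.30 and 0.86 FPKM in ctrl 1 to 5 and at 1.10, 1.32, 0.81, 1.14 and 1.50 FPKM in BKO 1 to 5. Only ctrl 5 reached into the BKO range, above BKO 3. Rsad2 rose by 0.90 (SE 0.195, limma adjusted p = 0.0115), and by 1.40 with a pseudocount of 0.1 FPKM. It met the filter on low values in 5 BKO libraries and 1 ctrl library, so it was tested because of its BKO level. Cmpk2, a nucleotide kinase gene that neighbours Rsad2 and is often induced with it, had a ctrl mean of 10.7 ± 0.362 FPKM and a BKO mean of 9.78 ± 0.888 FPKM (SD, n = 5 per group). Its difference of -0.12 did not pass the test (95% interval -0.28 to 0.03, limma adjusted p = 0.429).

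Ifi27 and Ifi27l2a encode small hydrophobic proteins of one interferon-inducible family and lie on chromosome 12. Ifi27, the most abundant effector here, stood at 30.5, 26.6, 29.7, 29.8 and 31.4 FPKM in ctrl 1 to 5 and at 34.8, 36.4, 32.1, 36.9 and 40.4 FPKM in BKO 1 to 5. The groups did not overlap, though BKO 3 lay just above ctrl 5. The rise was 0.28 (SE 0.0642, limma adjusted p = 0.0166), the smallest in log2 terms among the 6 that rose and the largest of the 10 in FPKM.

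Ifi27l2a stood at 9.97, 7.57, 7.67, 8.48 and 6.94 FPKM in ctrl 1 to 5 and at 12.1, 13.8, 9.14, 10.8 and 10.6 FPKM in BKO 1 to 5. BKO 3 alone lay within the ctrl range, below ctrl 1, and ctrl 5 was here the lowest library. The rise was 0.45 (SE 0.112, limma adjusted p = 0.0281). Leaving out any 1 of ctrl 2, ctrl 3, ctrl 5, BKO 1, BKO 2 and BKO 4 ended the call (limma adjusted p = 0.0528 to 0.0724), as did testing all genes unfiltered (limma adjusted p = 0.0618).

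Ifi44, an interferon-induced cytoplasmic protein, was too sparse to compare closely. It stood at 0.11, 0.06, 0.53, 0.10 and 0.69 FPKM in ctrl 1 to 5 and at 0.55, 0.47, 0.40, 0.52 and 0.55 FPKM in BKO 1 to 5. The ctrl libraries fell far apart, with ctrl 3 and ctrl 5 level with or above BKO, while the BKO libraries kept close together. Set against relative depth, the values lay within 0.183 of whole multiples of 1 step, from 1 step in ctrl 2 to 15 in ctrl 5 and 7 to 11 in BKO. The step was itself set near the lowest value, that of ctrl 2, and tuned to bring the values near whole multiples. The number of fragments in 1 step is therefore not known, and a handful of fragments may stand behind each value. The difference was 0.39 (95% interval -0.11 to 0.89, limma adjusted p = 0.429), and 0.90 or 0.23 with pseudocounts of 0.1 or 1 FPKM.

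Xaf1, a pro-apoptotic antagonist of the caspase inhibitor XIAP, stood at 5.88, 6.26, 7.66, 7.54 and 8.95 FPKM in ctrl 1 to 5 and at 9.57, 9.15, 5.09, 7.52 and 6.70 FPKM in BKO 1 to 5. The BKO libraries held both the highest and the lowest values. The difference of 0.05 did not pass the test (95% interval -0.28 to 0.37, limma adjusted p = 0.919), and its sign turned without ctrl 1, ctrl 2, BKO 1 or BKO 2.

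In ctrl, ctrl 5 was the highest library for 9 of the 10 effectors, all but Ifi27l2a, and ctrl 2 was the lowest for 6. The BKO libraries had no such order: BKO 5 was the highest for 4, BKO 1 for 3, BKO 2 for 2 and BKO 3 for 1. Ifi44, level in BKO 1 and BKO 5 at 0.55 FPKM, was counted under BKO 1 alone. BKO 3 was also the lowest for 5. Without ctrl 5 the rise of Ifit1 was 0.99, that of Ifit3b 1.09 and that of Rsad2 1.05 (limma adjusted p = 0.000109, 0.000584 and 0.00187). Ctrl 5 was their highest ctrl library in these same values, so leaving it out could only raise those differences. The rise of Ifi27l2a, in which ctrl 5 was the lowest library, was 0.40 without ctrl 5 and did not pass (limma adjusted p = 0.0631). As a description over 10 libraries, the deviation of a gene from its group mean was correlated with the mean deviation of the other effectors. Pearson's r was 0.74 for Ifit1, 0.77 for Ifit3b and 0.77 for Rsad2, but 0.02 for Ifit2 and -0.07 for Ifi27l2a. These points share library, depth and tissue content.

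Among 14437 other genes, Fam162a, Slc16a8, Fam185a, Upp1 and Aspa had deviations most like the mean of the 10 effectors, with Pearson's r of 0.95, 0.95, 0.94, 0.94 and 0.92 over 10 libraries. In all 5 of them ctrl 5 was also the highest and ctrl 2 the lowest of the ctrl libraries. The 35 other interferon genes ran from r = 0.80 for Oas1a, at rank 139, to r = -0.92 for Jak1, with a median of 0.27. Of them 12 had a negative r, among them Usp18 (r = -0.32) and Irgm1 (r = -0.07), which both rose in BKO.

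**Figure D3:**
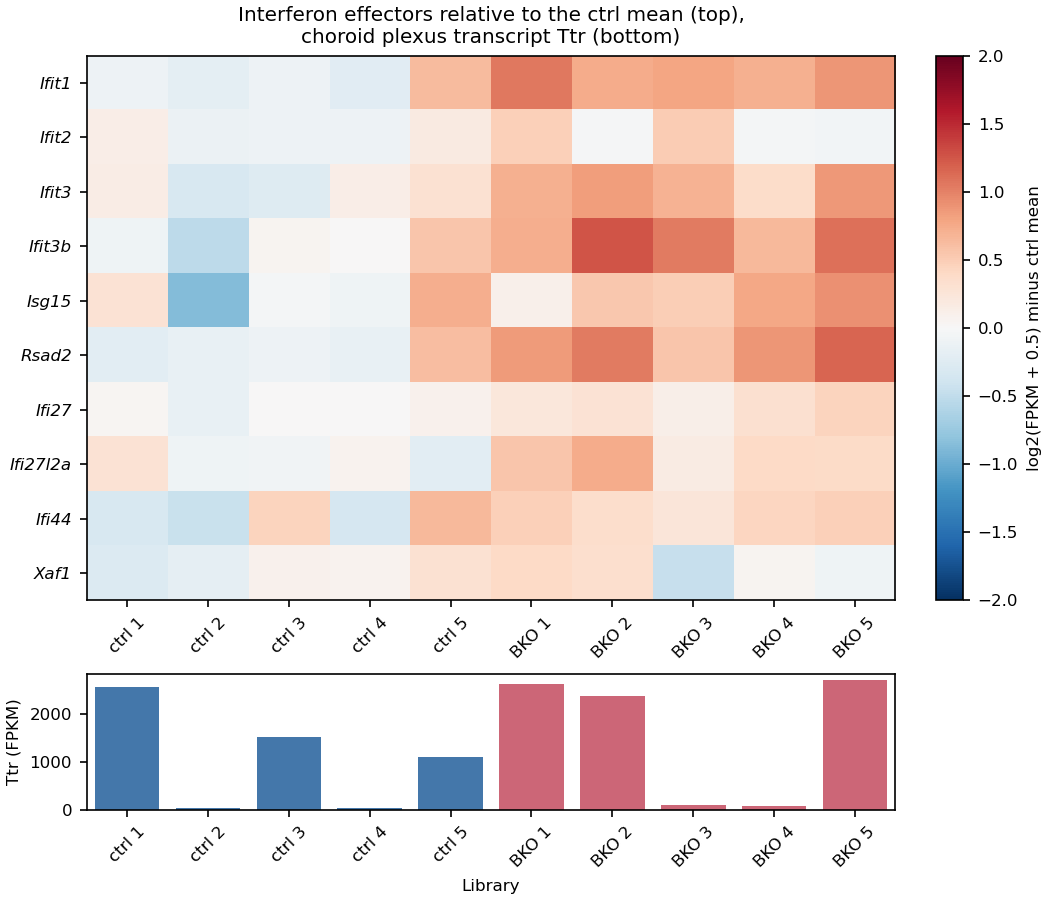
Heat map of each effector's log2(FPKM + 0.5) minus its ctrl mean in the 10 libraries (colour scale from -2 to 2), above bars of Ttr in FPKM, a choroid plexus transcript. Ctrl 5 is on the high side for 9 of the 10 effectors, and Ttr is high in 3 libraries of each group.

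The choroid plexus split was set beside the effectors because it cuts across both groups. Among the 3 ctrl and 3 BKO libraries with at least 1000 FPKM of Ttr, Ifit1 was higher in BKO by 0.75, Ifit3 by 0.75, Ifit3b by 0.85, Rsad2 by 0.91, Ifi27 by 0.28 and Ifi27l2a by 0.55. Of these, Ifit3 and Ifit3b passed (limma adjusted p = 0.0190 and 0.0499). Among the 2 ctrl and 2 BKO libraries with less Ttr, the values were 0.96, 0.62, 1.10, 0.87, 0.29 and 0.30, and none passed. With the choroid plexus marker level as a covariate over all 10 libraries, the same 6 effectors passed, at 0.81, 0.67, 0.92, 0.87, 0.27 and 0.43. Isg15 differed by 0.20 in the libraries with high Ttr and by 1.11 in those with low Ttr (limma adjusted p = 0.812 and 0.111), and whether these differ from each other was not tested.

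Markers of other cell types were measured beside the effectors. None of 8 microglial markers passed, and their summed level was 241 to 291 FPKM in ctrl and 262 to 288 FPKM in BKO. None of 7 endothelial markers passed, with sums of 78.1 to 99.0 FPKM in ctrl and 79.7 to 117 FPKM in BKO. All 7 had a positive difference, with a median of 0.26. The sum of BKO 1, at 79.7 FPKM, lay within the ctrl range, and those of the other BKO libraries, at 112 to 117 FPKM, lay above it. Of 7 astrocyte markers 4 rose, with sums of 1659 to 1842 FPKM in ctrl and 2039 to 2269 FPKM in BKO. Most of that lay in Gfap, a filament gene of reactive astrocytes, which went from 85.4 ± 5.55 to 435 ± 71.1 FPKM (SD, n = 5 per group), a rise of 2.33 (limma adjusted p = 1.23e-09). Without Gfap the sums overlapped, at 1567 to 1756 FPKM in ctrl and 1660 to 1774 FPKM in BKO. Aldoc, with means of 1075 FPKM in ctrl and 1051 FPKM in BKO, largely sets these sums and did not pass. Aqp4, Aldh1l1 and Slc1a3 also rose, by 0.64, 0.51 and 0.19 (limma adjusted p = 0.000441, 8.12e-06 and 0.0131), each without overlap. Gja1 and S100b did not pass. All 7 oligodendrocyte markers fell, with sums of 2842 to 3386 FPKM in ctrl and 960 to 1307 FPKM in BKO. Markers of neutrophils and monocytes summed to 3.41 to 15.7 FPKM in ctrl and 2.29 to 45.7 FPKM in BKO, where BKO 2 alone set the upper end and the others reached 6.93 FPKM. Ly6g, which defines neutrophils, was listed at 0 in most libraries of both groups. Lymphocyte markers summed to at most 1.25 FPKM in ctrl and 1.43 FPKM in BKO. None of the 6 meningeal markers passed, with sums of 35.9 to 56.0 FPKM and 31.6 to 75.6 FPKM. The part of these shifts in the rise of the effectors was not tested.

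Upstream of the effectors, the interferon genes themselves were hardly seen. Of 10 interferon genes, 8 were listed at 0 in all 10 libraries, among them Ifnb1 and Ifng. Ifna2 was listed at 0.14 FPKM in BKO 5 and Ifne at 0.18 FPKM in ctrl 3, and at 0 elsewhere. An interferon transcript at a level below what these libraries detect would also be listed at 0.

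Of 7 listed genes of the receptor, its kinases, ISGF3 and Irf7, 2 rose and none fell. Irf7, a factor that amplifies the response, had a mean of 1.54 ± 0.351 FPKM in ctrl against 3.09 ± 0.835 FPKM in BKO (SD, n = 5 per group), a rise of 0.80 (SE 0.171, limma adjusted p = 0.0100). Irf9, the DNA-binding part of ISGF3, rose by 0.44 (SE 0.0757, limma adjusted p = 0.00191). Stat2 stood at 12.1 ± 0.778 and 12.2 ± 0.520 FPKM (SD, n = 5 each), a difference of 0.01 (95% interval -0.13 to 0.15) that was -0.00375 after quantile normalization. The receptor chains Ifnar1 and Ifnar2 and the kinases Jak1 and Tyk2 did not pass either, with differences from -0.09 to 0.03.

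Of 5 genes that attach or remove ISG15, 2 rose and none fell. Usp18, the protease that removes ISG15 and also restrains the receptor, rose by 0.72 (SE 0.141, limma adjusted p = 0.00534), with 0.79, 1.16, 0.84, 1.00 and 0.90 FPKM in ctrl 1 to 5 and 1.54, 1.84, 2.19, 1.58 and 2.24 FPKM in BKO 1 to 5. The groups did not overlap, and ctrl 5 was not the highest ctrl library here. Uba7, the enzyme that activates ISG15, rose by 0.51 (SE 0.126, limma adjusted p = 0.0272), and leaving out any 1 of ctrl 2, ctrl 3, ctrl 5, BKO 2, BKO 3 and BKO 5 ended that call (limma adjusted p = 0.0524 to 0.0773). Ube2l6, Herc6 and Trim25, which conjugate the tag, did not pass.

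Of 5 relatives of the effectors in the table, 3 could be tested and none passed. Ifit1bl1, a relative of Ifit1 in the same cluster, had a ctrl mean of 3.38 ± 0.226 FPKM and a BKO mean of 2.85 ± 0.933 FPKM (SD, n = 5 per group), a difference of -0.25 (95% interval -0.58 to 0.08, limma adjusted p = 0.449). Ifi44l was listed at 0 in all 10 libraries.

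Of 20 other interferon-induced effectors that could be tested, of 24 listed, 11 rose and none fell. Oas1a, among the 11, met the filter on low values in 5 BKO libraries and 2 ctrl libraries. Parp14, which did not pass, met it in 5 BKO libraries and 1 ctrl library. Both were tested because of their BKO level. Among the 11, leaving out any 1 library except ctrl 5 or BKO 3 ended the call of Oas1a (limma adjusted p = 0.0672 to 0.0943). Leaving out any 1 except ctrl 2, ctrl 5 or BKO 4 ended that of Eif2ak2 (limma adjusted p = 0.0572 to 0.0962). Bst2 lost its call without any 1 of ctrl 2, BKO 1, BKO 2, BKO 3 and BKO 5 (limma adjusted p = 0.0541 to 0.0767). The median difference of the 20 was 0.58. Gbp3, an interferon-induced GTPase, went from 2.35 ± 0.404 to 5.82 ± 0.578 FPKM, and Irgm1, another GTPase, from 9.29 ± 0.339 to 13.0 ± 1.23 FPKM (SD, n = 5 each). They rose by 1.15 and 0.46 (SE 0.116 and 0.0726, limma adjusted p = 1.40e-05 and 0.000956). Ifitm3, a membrane protein that blocks viral entry, and Lgals3bp, a secreted glycoprotein, rose by 1.11 and 0.98 (limma adjusted p = 0.000167 and 2.47e-05). Over all 4 groups of related interferon genes, 15 of 35 tested rose, and 16 had no overlap between ctrl and BKO, all with BKO higher. The 16 include Trim25 and Dtx3l, which did not pass, and leave out Eif2ak2, which rose with overlap. Beside these counts and those of the single groups, 3.32% of all genes tested were called higher. No overlap with BKO higher occurred in 3.62% of them.

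**Figure D4:**
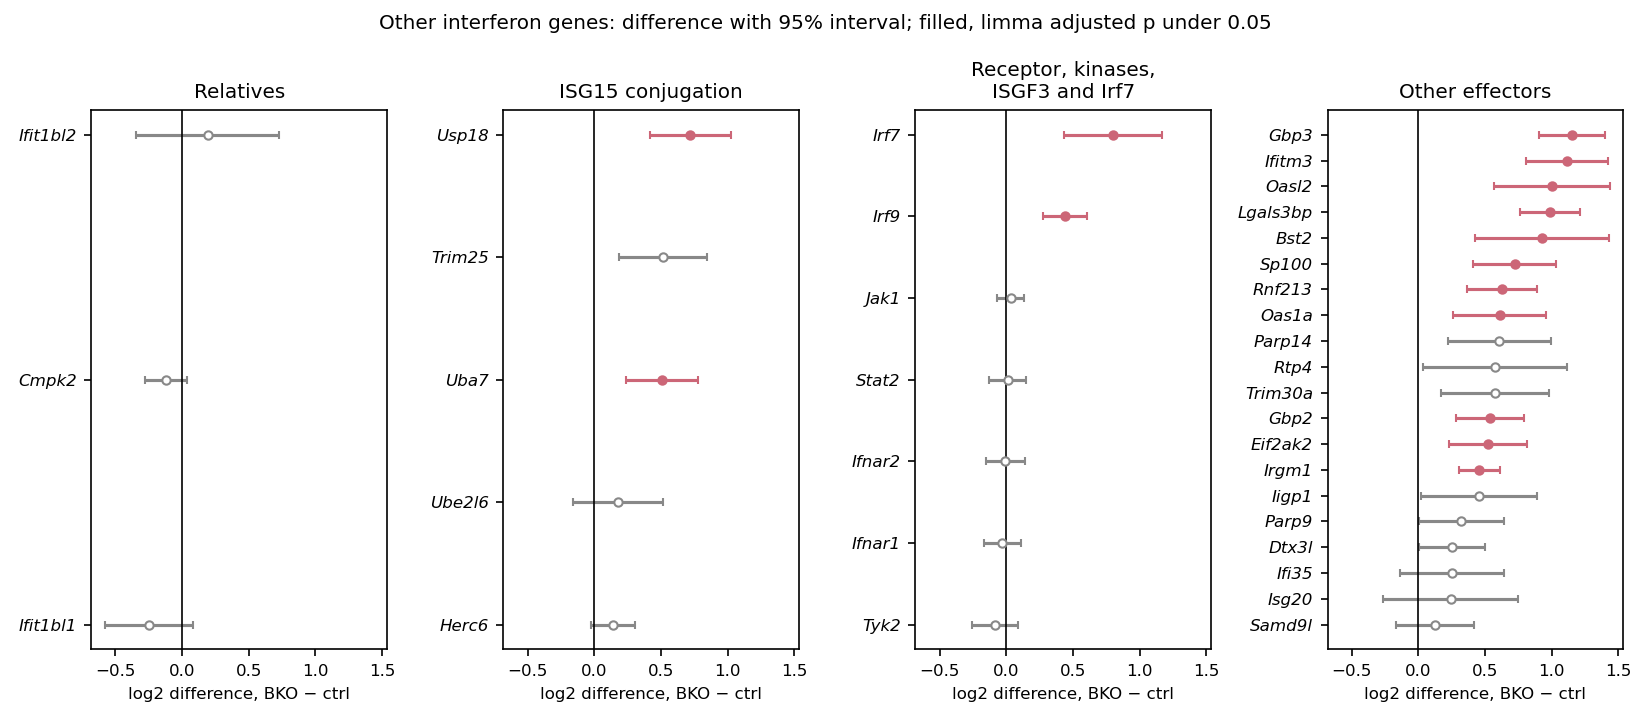
Log2 difference, BKO minus ctrl, of 35 other tested interferon genes in 4 groups, with 95% intervals, filled where the limma adjusted p over all genes was under 0.05. In the third panel Irf7 and Irf9 are filled while Stat2, Jak1, Tyk2 and both receptor chains lie near 0.

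The letters GAAANNGAAA stood in the promoter windows of 7 of the 14 other interferon genes that rose and had a window, and of 4 of the 16 that did not pass. Among all genes tested they stood in 3.56% of the 11241 with a window, in 8.38% of those called higher and in 3.40% of those not called. The 31 genes behind the 8.38% include Ifit1, Ifit3, Ifit3b, Rsad2 and the 7 other interferon genes, so that share is not separate from theirs. Of the effectors with a match, shown in the sequences of Ifit1, Ifit3, Ifit3b, Rsad2 and Isg15, all but Isg15 rose, and none of the 3 without a match passed. Ifi27 and Ifi27l2a, which also rose, had no window and are in neither count. Ifit3 and Ifit3b share the identical run of 169 bases that holds their matches, so they are not separate instances. These are descriptions of letters in a window and not of binding.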

How the data were processed

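Total RNA came from Trizol extraction, and an MGIEasy kit was used for the libraries, per the labels. The authors' deposited table holds FPKM values for 22198 genes, rounded to 2 decimals, with 0 columns of other samples. The submitters' processing notes name STAR, HTSeq and mm39, without versions. Strandedness and read counts are not given in the sources used here, so no counting intervals are given, and no exon of an effector overlapped another gene's in GENCODE M21. Differences of log2(FPKM + 0.5) were tested by limma 3.58.1 under R 4.3.3 (2-sided, with a variance trend), in a script first tested on simulated data. Summaries used Python 3.11.15. Named were the 10 effectors, up to 4 called genes of each related list and the 5 most alike genes; Chchd3, Stat2, Cmpk2, Ifit1bl1 and other uncalled genes were named after their values were seen. The effectors, lists, tests and alternatives were chosen with earlier results of these data known, and the 3 choroid plexus alternatives after these values were seen. Promoters are RefSeq's, and gene coordinates of mm39 were not used here. A gene of the related lists is not reported here and was left out of their counts.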

Additional observations from a re-analysis of the deposited data

Results flagged for a closer look

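Ifit1 and Rsad2 are listed because ctrl 5 stood far from the other ctrl libraries. Ifit1 was 3.03 FPKM in ctrl 5 and at most 1.63 FPKM in the others, a gap of 0.886 of the whole ctrl range. Rsad2 was 0.86 FPKM in ctrl 5 and at most 0.33 FPKM in the others, a gap of 0.898 of the range. The limit for 5 libraries is 0.710. Chance flags about 1 in 20 groups, and 2 of 52 groups met this limit here.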

How the results depend on the processing

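The number of effectors that rose was 6, and it was 5 to 6 under the other planned settings with all libraries and 5 to 6 with 1 library left out. Among libraries with high Ttr only it was 2 and with low Ttr only 0, where fewer libraries were fitted. The number of other interferon genes that rose was 15, and it was 11 to 14 with 1 library left out, 5 with high Ttr only and 4 with low Ttr only. The number of all genes called was 836, and it was 647 to 847 with 1 library left out, 393 with high Ttr only and 244 with low Ttr only. The difference of Xaf1 turned to -0.14 with low Ttr only and ran from -0.0401 to 0.172 with 1 library left out. The summed Ifit3 pair was higher by 0.71 to 0.91 with 1 library left out, and Chchd3 by 8.29 to 11.5 FPKM. The replicate numbers left no visible pairing of the libraries. No same-numbered pair correlated above 0.1 (r = -0.17 to 0.09), and 1 of 5 ctrl libraries correlated best with its own number. Such correlations cannot exclude that the libraries were paired. In the replicate block 6 effectors, 11 other interferon genes and 702 of all genes passed. Ifi44 and Rsad2 lay near the filter on low values, and Ifi44 fell below the filter in 5 of the 10 fits with 1 library left out.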
